A study of Mus musculus with 7 samples.

Results

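Keratin 8 (Krt8), E-cadherin (Cdh1), claudin 3 (Cldn3) and claudin 4 (Cldn4) are genes of simple and luminal epithelium, and their signals were followed in sorted mouse mammary gland cells. The authors' deposited list of probe sets that differed between the sorted populations was searched by gene number and symbol, which gave 8 probe sets for these 4 genes among 1632 listed probe sets (1312 named genes). Krt8 and Cldn3 had 3 probe sets each, and Cdh1 and Cldn4 had 1 each. The 4 genes were measured in 3 arrays of side population cells (SP, the cells that pump out the dye Hoechst 33342), 3 arrays of non-side population cells (NSP, sorted from a separate gate of stained cells) and 1 array of a universal mouse reference RNA (Stratagene), a commercial pool of RNA from mouse cell lines. RNA of the sorted cells went through 2 rounds of amplification, and strain, age and reproductive stage of the mice have no entry in the labels. Samples of each population are numbered 1 to 3. Whether they came from separate animals is not stated, and the p-values below therefore reflect variation among these preparations, some of which could be technical.

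The ducts of the mammary gland have an inner luminal layer and an outer basal layer. Krt8 is a type II keratin that pairs with a type I partner, mainly keratin 18, to build the filaments of simple epithelium, and in the mammary gland it marks luminal cells. E-cadherin joins neighbouring epithelial cells at adherens junctions through calcium-dependent contacts and is tied to actin through catenins. Claudins form the strands of tight junctions, which seal the space between epithelial cells. Claudins 3 and 4 are related members of that family, and both are receptors for an enterotoxin of Clostridium perfringens.

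All 4 genes had lower signals in SP than in NSP cells, by 2.41-fold (Krt8) to 3.28-fold (Cldn4), and every SP array lay below every NSP array at each of the 8 probe sets. Over all 38115 probe sets tested, 7.57% had every SP array below every NSP array, 4.27% were at least 2-fold lower in SP, and 2.61% were both, as all 8 were. Lower in SP in all 3 pairs were 16.8%. The authors had listed these probe sets for this same contrast, so these counts describe the listed probe sets and are not independent evidence. SP replicate 3 stood apart from the other SP arrays, with the highest SP signal at 8 of 8 probe sets (31.6% of all probe sets tested were highest there). Differences are therefore given for each pair of same-numbered samples as well. Values are MAS5 signals, which carry no fixed unit, and a gene is represented by its probe set of highest mean. In RNA from sorted bulk cells, fewer cells of a type and less RNA per cell cannot be told apart.

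Krt8, the filament protein, had signals of 5186, 5928 and 9185 in SP replicates 1 to 3, against 15172, 17529 and 14865 in NSP replicates 1 to 3. The SP values did not overlap the NSP values, and the lowest NSP array was 1.62 times the highest SP array. The mean log2 difference was -1.27 ± 0.26 (SP minus NSP, moderated standard error, n = 3 each; 2.41-fold lower in SP; limma adjusted p = 0.400). By pair it was -1.55, -1.56 and -0.69, so SP cells held 34.2%, 33.8% and 61.8% of the NSP signal. Its other probe sets, 1420647_a_at and 1423691_x_at, gave -1.28 ± 0.28 and -1.38 ± 0.29, both within 1 standard error of the first.

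Cdh1, the adhesion receptor, had signals of 1862.5, 1851 and 3046 in SP replicates 1 to 3, against 6519, 7222 and 5577 in NSP replicates 1 to 3. SP replicates 1 and 2 were close to each other, and SP replicate 3 lay between them and the NSP arrays. The difference was -1.55 ± 0.29 on the log2 scale (2.92-fold lower in SP; limma adjusted p = 0.389). By pair it was -1.81, -1.96 and -0.87, which is 28.6%, 25.6% and 54.6% of the NSP signal.

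Cldn3 had signals of 318, 368 and 669 in SP replicates 1 to 3, against 1123, 1642.5 and 1172 in NSP replicates 1 to 3. The order of the SP arrays was the same as for Krt8. The difference was -1.60 ± 0.34 (3.02-fold lower in SP; limma adjusted p = 0.400), with -1.82, -2.16 and -0.81 by pair. Its other probe sets, 1460569_x_at and 1451701_x_at, gave -1.84 ± 0.31 and -1.62 ± 0.26, and pair 3 was the smallest difference in each. Probe sets whose names end in _x_at may also bind related transcripts, and the 3 Cldn3 probe sets differed among themselves by less than their standard errors.

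Cldn4 had signals of 763, 680 and 1080 in SP replicates 1 to 3, against 2203, 3255 and 2747 in NSP replicates 1 to 3. The gap between the groups was wide, with the lowest NSP array 2.04 times the highest SP array. The difference was -1.71 ± 0.25 (3.28-fold lower in SP; limma adjusted p = 0.376), with -1.53, -2.26 and -1.35 by pair. Pair 3 reached 39.3% of the NSP signal, lower than for the leading probe sets of the other 3 genes in that pair (54.6% to 61.8%). The Cldn3 probe sets 1460569_x_at and 1451701_x_at were nearer, at 40.45% and 45.6%. On the authors' own values, given below, Cldn3 (1434651_a_at) differed more than Cldn4 in pair 3, by -1.36 against -1.18.

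**Figure D1:**
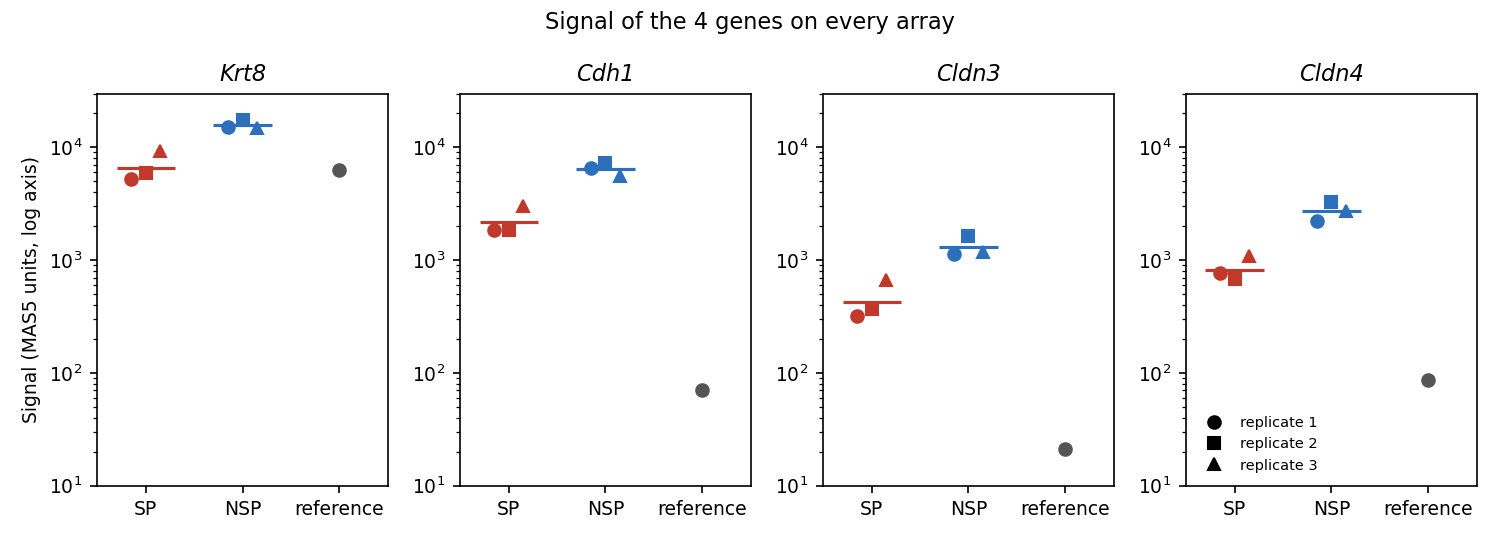
MAS5 signal (log axis) of the probe set of highest mean for each gene, by group, with a point for each array (marker shape gives the replicate) and a line at the geometric mean of 3 arrays. SP arrays lie below NSP arrays for each gene, SP replicate 3 is the highest SP array, and the reference array is near the SP arrays for Krt8 and far below both populations for the other 3 genes.

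No probe set passed the threshold of 0.05 after Benjamini-Hochberg adjustment in the limma fit with the sample number as a block (0 of 38115, 0%), so none of the 8 probe sets was called. At an unadjusted p under 0.05 that fit had 3758 probe sets, and all 8 member probe sets were among the 1941 that were lower in SP (5.09% of those tested). The unadjusted p of the 8 lay between 0.00353 and 0.0121. With an intensity trend in the variance prior, all 8 passed (limma adjusted p 0.000284 to 0.00297), where 1.31% of probe sets were called lower in SP. The authors had chosen these probe sets by a paired p of at most 0.05 on these same arrays. Low p-values and passing in these fits are therefore not independent evidence. The authors' deposited table gave the 8 probe sets unadjusted paired p-values of 0.0335 to 0.0458, and all 8 stand in the authors' list with a minimum difference of 0.7. The authors also gave false discovery estimates for their lists as a whole, which were not recomputed here.

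The size of the difference varied among the 4 genes by less than, or about as much as, it varied between pairs. On the MAS5 signals Krt8 differed less than Cdh1 in all 3 pairs, by 0.28 ± 0.11 on the log2 scale (SD, n = 3 pairs). By the leading probe sets it also differed less than Cldn3 in all 3 pairs, by 0.33 ± 0.24. In pair 1, however, Krt8 1423691_x_at (-1.73) differed more than Cldn3 1460569_x_at (-1.67) and 1451701_x_at (-1.61). The order of Krt8 and Cdh1 was reversed on the authors' own values, given below. So was the mean order of Krt8 and the leading Cldn3 probe set (-1.28 against -1.21), though not their order in pair 3. The other Cldn3 probe sets had -1.33 and -1.51 on those values. Krt8 against Cldn4 gave 0.44 ± 0.40 with 1 pair in the other direction, and the 2 claudins differed by 0.12 ± 0.42. With 3 pairs the smallest two-sided p of an exact permutation test is 0.25, so an exact test could not pass for any of these differences between genes, and no other test was run on them.

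**Figure D2:**
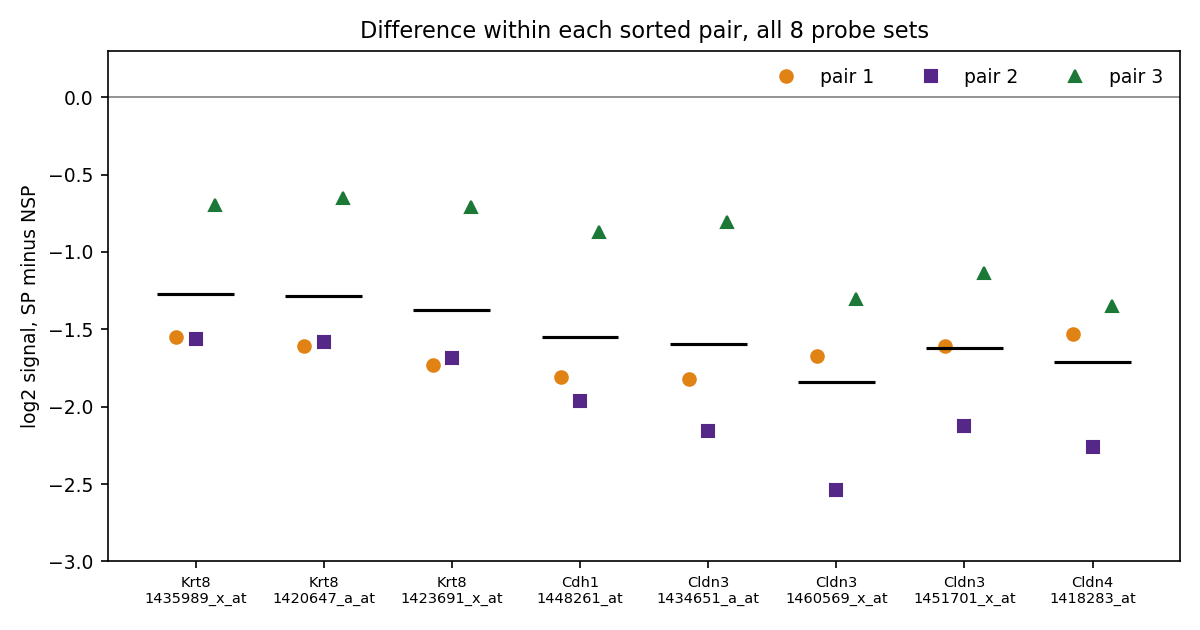
Log2 signal of SP minus NSP within each pair of same-numbered samples, for the 8 probe sets. Points are pairs and black lines are means of 3 pairs. Pair 3 is the difference nearest 0 for each probe set, between -0.65 and -1.35, and all 24 points lie below 0.

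Over the 8 probe sets, SP signals were 28.3% to 34.6% of NSP in pair 1, 17.2% to 33.8% in pair 2 and 39.3% to 63.5% in pair 3. Without pair 3 the mean log2 differences of Krt8, Cdh1, Cldn3 and Cldn4 were -1.56, -1.89, -1.99 and -1.89. The 3' to 5' ratio of control transcripts also differed between groups and pairs. For the actin control probe sets, the 3' end over the 5' end, a measure of how far amplified copies reach, was on the log2 scale 4.12, 4.16 and 3.27 in SP replicates 1 to 3 and 3.92, 3.53 and 2.38 in NSP replicates 1 to 3. For Gapdh it was 3.55, 4.35 and 3.04 in SP and 3.35, 3.11 and 2.14 in NSP. Both ratios were higher in SP than in NSP in all 3 pairs, and within each group replicate 3 had the lowest. The part of these ratios in the differences between SP and NSP, and in the smaller differences of pair 3, was not tested.

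The authors' deposited table also holds a dChip value for each array, on a log scale whose base the file headers do not give and which is read here as log2. In that table Krt8 (1435989_x_at) had 11.23, 11.58 and 12.34 in SP replicates 1 to 3, against 12.75, 13.16 and 13.09 in NSP replicates 1 to 3. The order of the arrays within SP was the same as for the MAS5 signals. In the authors' deposited table Cdh1 had 10.91, 10.9 and 11.53 in SP, against 12.16, 12.26 and 12.13 in NSP, and SP replicate 3 was again the highest SP array. In the authors' deposited table pair 3 had the smallest difference at 7 of the 8 probe sets. For Cldn3 (1434651_a_at) that table gave -0.76, -1.50 and -1.36 by pair, so there pair 1 was the smallest. The authors' deposited table gave differences of -1.28 (Krt8), -1.07 (Cdh1), -1.21 (Cldn3) and -1.72 (Cldn4). By pair, that table gave -1.52, -1.58 and -0.75 for Krt8 (1435989_x_at) and -1.25, -1.36 and -0.60 for Cdh1. Krt8 thus differed more than Cdh1 in each pair there, the reverse of the MAS5 order. Over the 8 probe sets of the authors' deposited table the dChip difference was 0.691 to 1.01 times the log2 signal difference. In the authors' deposited table every array was called present at 7 of the 8 probe sets. The exception was the Cldn3 probe set 1434651_a_at, with 66% present calls in SP and 100% in NSP.

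The reference array separated Krt8 from the other 3 genes. Krt8 had a signal of 6312 on the reference array, so SP cells were 1.04-fold above it and NSP cells 2.505-fold above it. SP replicates 1 and 2 lay below the reference and SP replicate 3 above it, so the SP spread covered the reference value. Of all probe sets tested, 13.3% were at least 2-fold higher in SP than on the reference array and 14.7% at least 2-fold lower, while 13.1% were at least 2-fold higher in NSP and 13.7% at least 2-fold lower.

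Cdh1 had a signal of 70.7 on the reference array, 31.0-fold below the SP mean and 90.6-fold below the NSP mean. Cldn3 had 21.2 there, close to the floor of 17 set on all signals, 20.2-fold below SP and 61.0-fold below NSP. Its probe set 1460569_x_at, at 46.8 on the reference array, gave smaller folds, 7.41 for SP and 26.5 for NSP. Cldn4 had 85.6, 9.63-fold below SP and 31.55-fold below NSP. For these 3 genes the lowest SP array was 26.2 (Cdh1), 14.98 (Cldn3) and 7.94 (Cldn4) times the reference array. The SP signals that lay under NSP were thus well above the reference RNA for the adhesion receptor and both claudins, though not for Krt8. Of all probe sets tested, 0.491% were at least 2-fold above the reference in SP and at least 2-fold below NSP. The authors listed the genes for the SP and NSP contrast, so that share does not show the pattern to be unusual. Of the 1629 probe sets at least 2-fold lower in SP, 187 were also at least 2-fold above the reference, against 5057 of all 38115 tested. The reference is 1 array with no replicate check, its RNA comes from other cells, and whether it went through the same amplification was not stated.

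**Figure D3:**
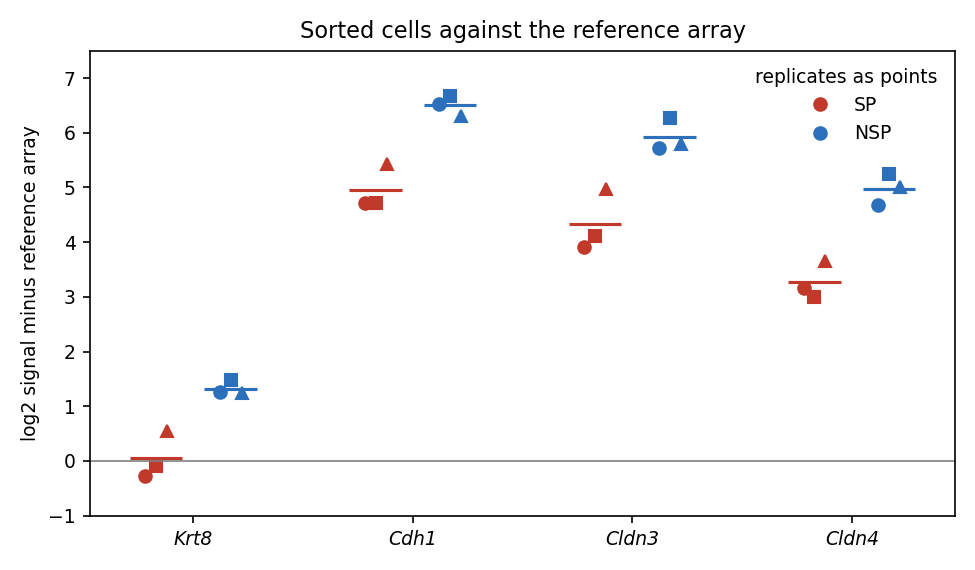
Log2 signal of each sorted-cell array minus that of the reference array for the 4 genes, SP left of NSP. Points are arrays and lines are means of 3 arrays. Krt8 in SP cells straddles 0, while Cdh1, Cldn3 and Cldn4 lie above 3 on average in SP and above 4.9 in NSP cells.

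The sequences before the annotated starts are shown because the genes moved in the same direction, and Cldn4 and Cldn3 are neighbours on chromosome 5 with 0 annotated genes between them. Of the 4 genes, 3 matched the RefSeq promoter table (GRCm38.p6). The 250 bases before each start are printed on the gene's strand, 5′ to 3′, with matches to the E-box CAGGTG (either strand), a motif that the repressors Snail and Zeb are known to bind, in capitals. They lie at chr15:102004343-102004592 (Krt8, minus strand), chr5:134985964-134986213 (Cldn3, plus strand) and chr5:134946935-134947184 (Cldn4, minus strand).
Krt8: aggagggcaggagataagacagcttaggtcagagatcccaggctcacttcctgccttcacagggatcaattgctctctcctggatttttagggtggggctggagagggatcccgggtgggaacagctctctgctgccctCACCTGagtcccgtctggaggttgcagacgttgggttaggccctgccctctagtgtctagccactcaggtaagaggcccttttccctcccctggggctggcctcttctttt
Cldn3: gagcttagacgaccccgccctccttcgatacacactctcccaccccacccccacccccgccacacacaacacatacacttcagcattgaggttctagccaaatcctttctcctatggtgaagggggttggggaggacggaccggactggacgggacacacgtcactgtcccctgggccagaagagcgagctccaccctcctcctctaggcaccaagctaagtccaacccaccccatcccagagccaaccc
Cldn4: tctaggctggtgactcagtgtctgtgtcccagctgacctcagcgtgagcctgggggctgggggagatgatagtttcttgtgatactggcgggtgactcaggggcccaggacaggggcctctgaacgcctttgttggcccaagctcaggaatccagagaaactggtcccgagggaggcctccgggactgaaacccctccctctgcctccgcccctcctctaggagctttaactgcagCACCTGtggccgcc

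The E-box match began 111 bases before the start in Krt8 and 14 bases before it in Cldn4, and the printed Cldn3 sequence held none. In the first 50 bases after the start, Cldn3 had a match at position 32 and Cldn4 a second one at position 12. Over these windows of 300 bases, 20.2% of 32851 promoters held the E-box, and in the 250 bases before the start 17.2% did. The TATA motif TATAAA matched across the start of Krt8 and in neither claudin (13.6% of all windows), the AP-2 motif GCCNNNGGC matched in Cldn3 after the start (16.6%), and the grainyhead motif AACCGGTT matched in none of the 3 (0.146%). All motifs were searched on both strands. GCCNNNGGC and AACCGGTT read the same on either strand, the Cldn3 E-box match began on the last base of its AP-2 match, and the TATA match overlapped one on the opposite strand. A match describes letters in the window and does not show binding.

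Other genes of filaments and junctions were read from lists drawn up for this tissue. A gene was named only where it stood in the authors' list of differences, so counts of direction are not independent evidence, and members of a list without a name were not analysed here. None of the genes in these lists passed limma over all probe sets (0%, as above), and the median log2 difference over all probe sets tested was -0.0080. Among simple keratins 2 of 6 were named, both lower in SP with a median of -1.49. Krt7, a second type II keratin of luminal cells, had signals of 1146, 1313 and 2172 in SP and 4370, 5532 and 4723 in NSP (-1.71 ± 0.27). The order of its SP arrays was that of Krt8. Of 20 claudins 2 were named, the members themselves, with a median of -1.65, and of 11 cadherins 1 was named, Cdh1.

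Named partners of the tight junction numbered 3 of 22, with 2 lower and 1 higher in SP and a median of -0.31. Patj, a scaffold of the Crumbs polarity complex, had signals of 112, 218 and 286 in SP and 542, 806 and 581 in NSP (-1.73 ± 0.31). The groups did not overlap for Patj. Prkci, an atypical protein kinase C of the polarity complex, differed by -0.31 ± 0.15. Jam2, a junctional adhesion molecule of endothelial cells, was the one with higher signal in SP (1.01 ± 0.16), and its SP arrays (966, 1829 and 1026) lay above its NSP arrays (532.5, 844 and 494).

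Among partners of E-cadherin 3 of 20 were named, all lower in SP, with a median of -0.24. Epcam, an epithelial adhesion molecule, had signals of 1409, 1686 and 3195 in SP and 4857, 5746 and 5876 in NSP (-1.48 ± 0.27), close to the difference of Cdh1. The catenins, which link E-cadherin to actin and are used by other cadherins too, showed smaller differences. Ctnnb1 (beta-catenin) differed by -0.24 ± 0.18 and Ctnna1 (alpha-catenin) by -0.087 ± 0.15 (limma adjusted p = 0.698 and 0.875). All 3 named desmosome genes of 14 were lower in SP (median -1.17), with Dsp, the plakin that anchors keratin filaments, at -1.41 ± 0.27, Pkp1 at -1.17 ± 0.24 and Pkp2 at -0.95 ± 0.24.

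Repressors of E-cadherin had 3 named members of 11, with 1 lower and 2 higher in SP and a median of 0.14. The counts turned with 1 pair left out, to 0 lower and 3 higher (median 0.45) without replicate 1 and to 2 lower and 1 higher (median -0.027) without replicate 3. Zeb1 differed by 0.39 ± 0.19, Twist2 by 0.14 ± 0.20 and Foxc2 by -0.25 ± 0.54, and none of the 3 had an unadjusted p under 0.05. Zeb1 signals were higher in SP in all 3 pairs, with 4382, 4917 and 4318 in SP and 3810, 3044 and 3567 in NSP. The list of epithelial transcription and splicing regulators had 0 named members of 18.

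In the limma fit with the intensity trend, both simple keratins, both claudins, Cdh1, Epcam and the 3 desmosome genes passed as lower in SP, and of the tight junction partners Patj passed as lower and Jam2 as higher. The catenins, Prkci and the 3 repressors did not pass in that fit either. That fit called 1.31% of all probe sets lower in SP and 1.16% higher. Of the cell type lists described next, 7 of 7 named luminal and 5 of 8 named basal genes passed as lower with the trend, with 1 basal gene, Egfr, higher. All 13 named endothelial genes passed as higher, 3 of 5 leukocyte genes as lower, and 1 gene each of the fibroblast, pericyte and adipocyte lists as higher. All these genes were named from the authors' list for this same contrast. Their counts of passing are thus not independent evidence, and the shares of all probe sets are no fair background for them.

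**Figure D4:**
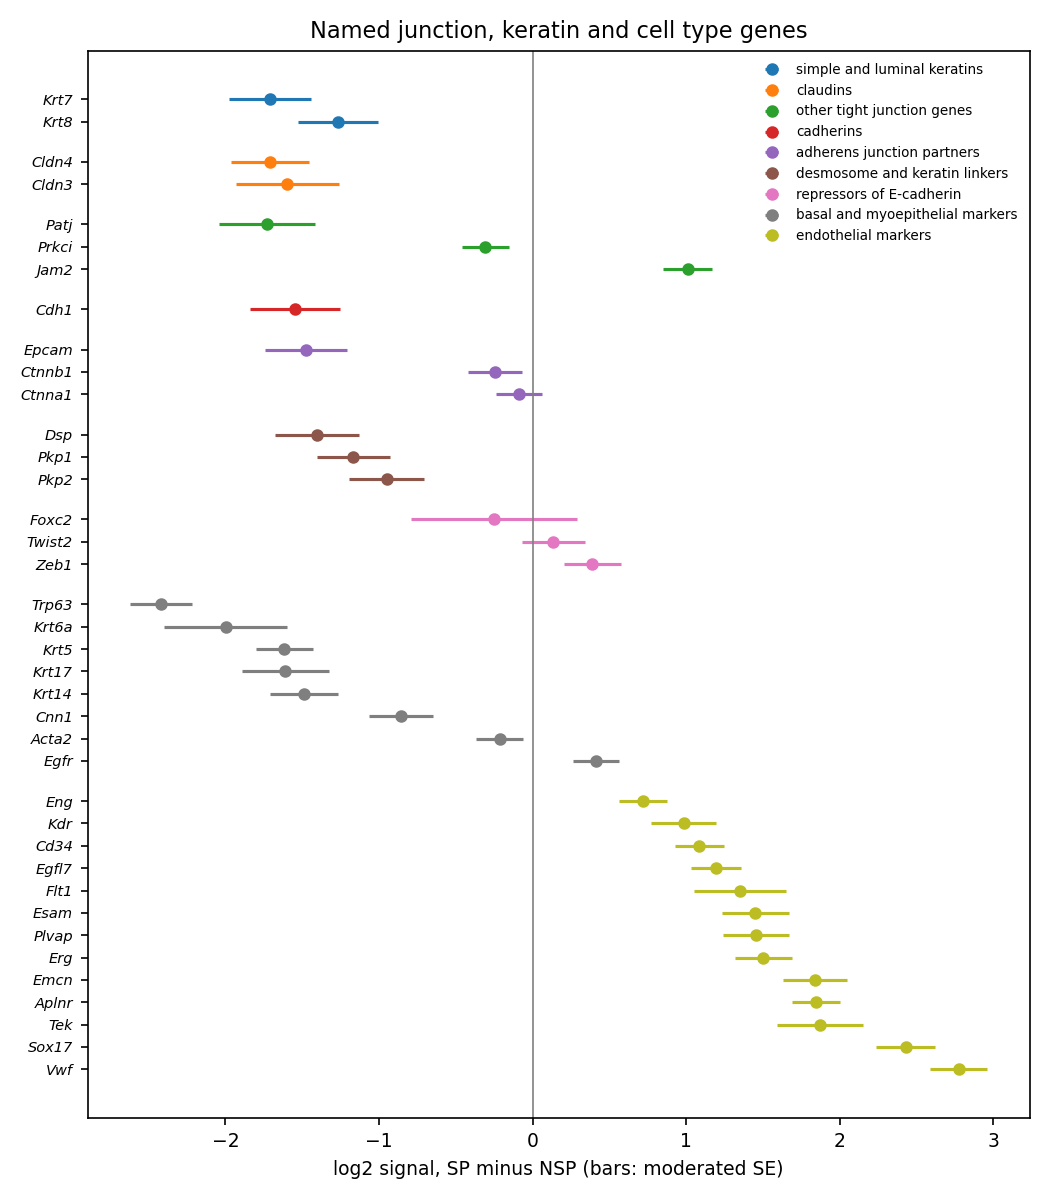
Log2 signal of SP minus NSP for named genes of 9 lists, with the moderated standard error as bars, ordered within each list. The 4 member genes lie between -1.27 and -1.71 beside Krt7, Epcam, Patj and Dsp, the catenins lie near 0, and the 13 endothelial genes lie above 0.

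Other cell type lists moved between the same arrays. All 7 named luminal markers of 24, the 4 member genes among them, were lower in SP (median -1.48), as were 7 of 8 named basal markers of 15 (median -1.55; Trp63 -2.42 ± 0.20, Krt5 -1.62 ± 0.19, Krt14 -1.49 ± 0.22, Krt17 -1.61 ± 0.28). In the same list Acta2, smooth muscle actin, differed by -0.22 ± 0.15, and Egfr, a growth factor receptor, had higher signals in SP (0.41 ± 0.15). All 13 named endothelial markers of 19 were higher (median 1.45), with summed signals of 12369 to 13652 in SP and 4255 to 4424 in NSP. Of these, Vwf, Sox17, Aplnr and Emcn had differences of 2.78, 2.43, 1.85 and 1.84. Leukocyte markers (5 of 13 named, 4 lower, median -2.72; Ctss -3.81, Laptm5 -4.91, Ptprc -2.72 and Cd68 -0.96) summed to 502 to 760 in SP and 3446.5 to 11174 in NSP. Among fibroblast markers 3 of 10 were named, all higher (Dcn 1.01, Col1a2 0.82, Pdgfra 0.23, median 0.82). Col1a2, which sets that median, was dim, with 180, 226 and 207 in SP and 97, 161 and 98 in NSP. It had 233 on the reference array and did not pass with the trend. The pericyte list had 2 of 7 named, both higher (Abcc9 0.85, Rgs5 0.45, median 0.65), and of 7 adipocyte markers 1 was named (Fabp4 0.49). The part of these other cell types in the differences of the 4 genes was not tested.

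SP replicate 3, where the 4 genes were highest among SP arrays, had the highest summed luminal signal of the SP arrays (36707, against 21431 in SP replicate 1 and 23077 in SP replicate 2). That sum includes the 4 genes themselves, so it is not separate from them. Its other named genes were also highest in SP replicate 3. In SP replicates 1 to 3 Epcam had 1409, 1686 and 3195, Cd24a 9021, 9545 and 11612, and Lcn2 2872, 3019 and 7920. The summed basal signal, 29196, 26637 and 24736 in SP replicates 1 to 3, was mostly that of Acta2 (21903, 20001 and 17278), so it does not stand for the list. Within that list Krt17 (128, 163 and 222) and Krt6a (177, 162 and 369) were highest in SP replicate 3, like the member genes, and Krt5 (280, 193 and 227) and Krt14 (415, 594 and 556) were not. Trp63, the basal transcription factor, had 156, 184 and 111 in these SP arrays, against 1062, 816 and 560 in NSP replicates 1 to 3, so its lowest SP value was in replicate 3. Endothelial sums were 12759, 13652 and 12369 in SP replicates 1 to 3, a narrow range beside that of the luminal list. Aplnr was the brightest gene in that sum (4861, 4032 and 4083), and the sum does not stand for each gene. Vwf (554, 1403 and 692) and Tek (343, 625 and 285) varied more and were highest in SP replicate 2, while Sox17 (939, 872 and 833) varied little.

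Among the 1308 other named genes, those with array profiles nearest to the members were found by centring each gene's log2 signal on its mean over the 7 arrays and taking the root mean square difference. Nearest to Krt8 were Ptprf (0.14), a receptor tyrosine phosphatase, Rab27b (0.15), a vesicle GTPase, and Spint2 (0.17), a Kunitz protease inhibitor, against a median of 0.80 over the others. Nearest to Cdh1 were Serpinb5 (0.26), the maspin gene, Lad1 (0.27), which encodes ladinin, and Krt7 (0.39), against a median of 2.17. Serpinb5 (4.9) and Lad1 (11.2) had reference signals below the floor of 17, so their reference values are the floor and these distances, and Lad1's distance to Cldn3, depend on it. Krt7 (0.18), Lad1 (0.20) and Kcnk1 (0.38), a potassium channel, were nearest to Cldn3, and Kcnk1 (0.23), Krt7 (0.24) and Dsp (0.25) to Cldn4. Krt7 was thus near 3 of the 4 members.

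The members themselves separated through the reference array. Krt8 was 1.77, 1.57 and 1.23 from Cdh1, Cldn3 and Cldn4 over the 7 arrays, whereas Cdh1 and Cldn3 were 0.26 apart, Cldn3 and Cldn4 0.40 and Cdh1 and Cldn4 0.59. The 6 genes nearest to the mean profile of the 4 were Kcnk1 (0.17), Dsp (0.17), AA467197 (0.29), Krt7 (0.29), Ccdc68 (0.29) and S100a14 (0.32). They were chosen for likeness to a profile lower in SP, which sets their direction, with AA467197 at -1.26, Ccdc68 at -1.48 and S100a14 at -1.50. Kcnk1 was at -1.64 and stood 3.32 above the reference array in SP on the log2 scale.

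**Figure D5:**
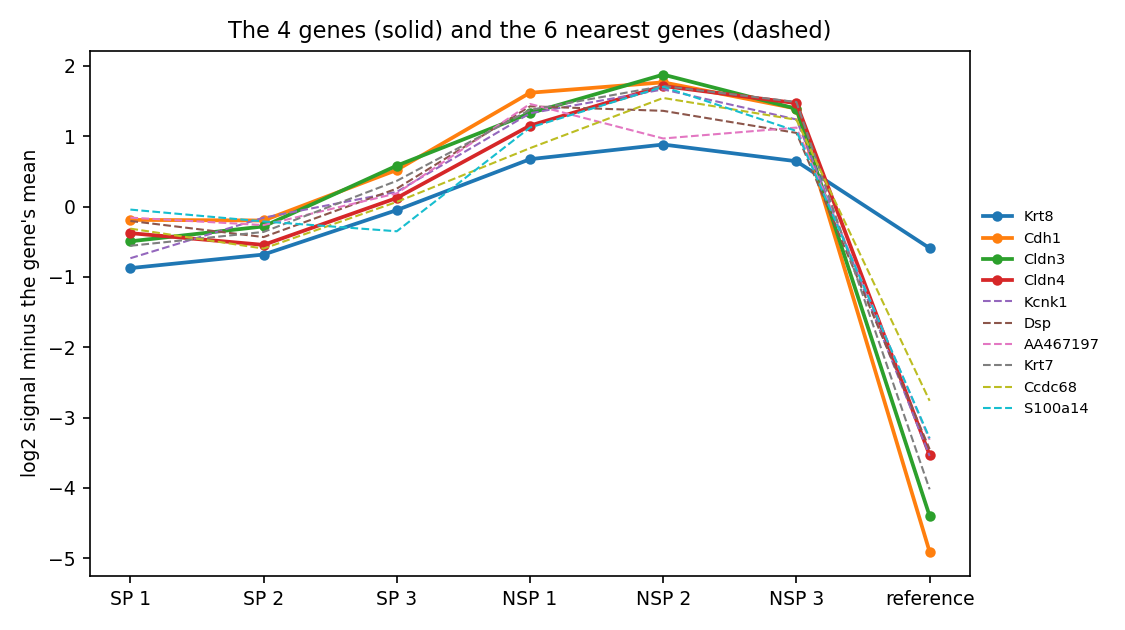
Log2 signal of each gene minus its own mean over the 7 arrays, for the 4 genes (solid lines with points) and the 6 named genes nearest to their mean profile (dashed). The reference array sets Krt8 (near -0.6) apart from Cdh1 (near -4.9), and through the mean it also shifts Krt8 away from the other members on the sorted-cell arrays.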

How the data were processed

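Expression was measured on Affymetrix mouse 430 2.0 arrays. Per probe set and array the deposited values are signal intensity on a linear scale. The submitters' processing notes name MAS5, and its version and scaling are unstated. The authors' deposited comparison table gives dChip values read as log2, present calls in percent, a paired statistic as a score and an unadjusted paired p-value, for probe sets chosen per the file headers by that p-value (at most 0.05), a minimum difference and present calls. Signals were used as deposited (array medians from 79.3 to 97.2), and the number of arrays limits the precision.

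A floor of 17, the 20th percentile over all SP and NSP signals, was applied before log2. The 38115 probe sets above it on at least 3 of the 6 arrays, without 64 control probe sets, entered a linear model in limma 3.58.1 under R 4.3.3, with moderated two-sided tests and Benjamini-Hochberg adjustment over all of them, with the sample number as a block because the authors' own comparison was paired per the file headers. By the labels a day is common to 2 of the 3 pairs, and deviations from group means correlated at 0.039, 0.041 and 0.12 within pairs. Between SP and NSP samples of different number the correlations ran from -0.064 to 0.021. The reference array had no test; 2-fold was counted. Names came from gene numbers and symbols matched to RefSeq (GRCm38.p6): 1492 of the 1632 listed probe sets had 1 symbol. All listed probe sets of the 4 genes were named, with every named gene of the keratin, claudin, tight junction, cadherin and E-cadherin partner lists, up to 4 of smallest p in the other lists, and the nearest profiles (3 per gene, 6 for the mean). Further luminal, basal and endothelial genes were named where they limit what a list shows. One gene of the lists is not reported here. The members and lists were chosen with earlier results of these data known. Alternatives covered the block, variance trend, normalization, floor, filter, threshold, paired test, probe set, dChip values and leaving out replicates.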

Additional observations from a re-analysis of the deposited data

How the results depend on the processing

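Against 0 probe sets called with the replicate block, limma called 6 without it, 381 when an intensity trend replaced it, and 942 when both were used; the methods' paired test gave 3265 at an unadjusted p under 0.05 and 0 after adjustment. No other alternative run called a probe set at 0.05. The adjusted p of Krt8, Cdh1, Cldn3 and Cldn4 passed 0.05 only in the fits with the trend, at 0.00104, 0.000877, 0.00297 and 0.000284 with the block and 0.00547, 0.00137, 0.00910 and 0.000964 with no replicate block. With no replicate block and no trend they were 0.208, 0.140, 0.216 and 0.115. Over the settings without a trend the lowest were 0.196, 0.140, 0.196 and 0.115, and the highest 0.597 in each. With 1 pair left out the log2 differences ranged from -1.56 to -1.12 (Krt8), -1.89 to -1.34 (Cdh1), -1.99 to -1.32 (Cldn3) and -1.89 to -1.44 (Cldn4). On dChip values the difference of Cdh1 was -1.07. All 4 stayed lower in SP in every setting run. Against the reference array, SP cells stood 3.82 and NSP cells 5.50 higher for Cldn3 on the mean of its probe sets, against 4.33 (SP) and 5.93 (NSP) on the brightest, the other probe sets having a smaller difference or a reference signal at the floor. Krt8 in SP lay on both sides of the reference with 1 array left out (-0.19 to 0.23). Dim reference signals of Cdh1, Cldn3 and Cldn4 limit the size of their folds. The causes of these moves were otherwise not tested.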

Other observations

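Likeness was also taken over the 6 sorted-cell arrays without the reference array, a choice made after seeing the data. The members then lay closer together, at 0.16 to 0.28 root mean square log2 difference, with Krt8 as near to Cdh1 (0.16) as Cdh1 was to Cldn3 (0.16). The 6 named genes nearest to the mean of the 4 were Rab27b (0.10), Spint2 (0.10), Krt7 (0.11), Krt17 (0.14), Lad1 (0.14) and Epcam (0.16), against a median of 0.79. Krt7 was the 1 gene also among the 6 nearest over 7 arrays. The basal keratin gene Krt17 and the luminal keratin gene Krt7 were thus both among them. These genes were listed by the authors for the same contrast, so closeness over the sorted arrays describes the listed genes.

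In the level on the reference array these neighbours divided. Rab27b, Spint2 and Epcam in SP cells stood at -0.13, -0.044 and -0.33 against it on the log2 scale, near Krt8 (0.056). Krt7 and Krt17 stood at 3.84 and 2.16, beside 3.27 for Cldn4 and 4.33 for Cldn3. Lad1 was below the floor on the reference array, so it has only a lower bound of 4.48. The reference is a single array, and these differences have no test.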
